A study of Mus musculus with 8 samples.

Results

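Semaphorins, ephrins and netrins are families of extracellular guidance cues, and plexins, neuropilins, Eph receptors, DCC and UNC5 proteins are the receptors that read them. The genes described here were chosen by symbol: semaphorins of classes 3 to 7, plexins, neuropilins, EphA and EphB receptors, ephrins, netrins, netrin-G proteins, Dcc and the Unc5 genes. Genes of the Slit and Robo families were left out. Of the 14884 genes in the deposited count table, 62 met the rule, and all 62 were among the 14506 genes that passed the filter on low counts. They comprised 7 class 3 semaphorins, 13 membrane-bound semaphorins, 9 plexins, 2 neuropilins, 8 EphA receptors, 5 EphB receptors, 4 ephrin-A ligands, 3 ephrin-B ligands, 4 netrins, 2 netrin-G proteins and 5 netrin receptors. Epha1 and Efna4 were also sought and were not analysed here.

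RNA came from the injected site in the primary somatosensory cortex of 4 male wild-type (WT) mice aged 3 months, numbered 33 to 36, and was taken 10 days after stereotactic injection. Group LNA218 is the hemisphere given an inhibitory oligonucleotide of locked nucleic acid (LNA) chemistry against miR-218-5p, a microRNA, and group NC the opposite hemisphere of the same animal, given a scrambled control, so that both groups carried an injection wound and an oligonucleotide. Mouse 35 had the inhibitor in its left hemisphere and the other 3 animals in the right. Each group held 4 libraries from 4 separate animals, made from polyadenylated RNA. The level of miR-218-5p itself was not analysed here, so the deposited values do not show how far it was inhibited.

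The 8 libraries held 17409882 to 25154657 estimated counts, with a median of 20586008. Markers of cortical excitatory neurons (8 of 8 listed genes measured, led by Camk2a) summed to 7865 to 8651 CPM (counts scaled to library size) in NC and 7603 to 8646 in LNA218, so the labelled tissue's markers were present throughout. Markers of striatal neurons were present at 215.1 to 426.4 CPM in NC and 252.5 to 430.0 in LNA218, and their median difference between hemispheres was -0.73, 0.79, -0.28 and 0.69 on the log2 scale in mice 33 to 36. Mouse 34 stood apart: the SD of the difference between its hemispheres over all tested genes was 0.66 log2 units, against 0.40 to 0.44 in the other 3 animals. Of the members named, 27 were chosen for the smallest p or the highest level in their role. For each of these whose fold change moved by over 1.5 times or changed sign without that animal, the value without it is given.

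In the developing nervous system these cues attract or repel growing axons. Secreted class 3 semaphorins bind neuropilins, which signal through plexins, whereas membrane-bound semaphorins mostly bind plexins directly. Ephrin-A ligands are held to the membrane by a lipid anchor and bind mainly EphA receptors, ephrin-B ligands span the membrane and bind mainly EphB receptors, and ligand and receptor can both signal. Netrins attract through DCC and repel through UNC5 receptors. In the adult cortex many of these genes remain expressed in neurons and glia and take part in shaping dendritic spines and synapses.

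A microRNA represses messenger RNAs that pair with its seed, and an inhibitor that binds the microRNA relieves that repression. The mature sequence shows the seed that a target must match, with bases 2 to 8 in capitals. It is credited to RefSeq (GRCm38.p6), where both the Mir218-1 gene (chr5:48223966-48223986, plus strand) and the Mir218-2 gene (chr11:35616840-35616860, plus strand) encode it.
miR-218-5p: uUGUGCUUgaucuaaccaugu

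The complement of the seed, AAGCACA, was sought on the transcript strand in the 3′ UTR of 1 GENCODE M21 transcript per gene (GRCm38). Matches in longer UTRs of other transcripts were not counted. The UTR searched was 11 nucleotides long for Sema3f, and the transcript taken for Unc5c had 3890 nucleotides against 9646 for its longest coding transcript. The transcripts taken for Ntng1 and Ntng2 had no 3′ UTR, at 1620 and 1770 nucleotides against 5587 and 1881 for their longest coding transcripts. This 7-base match occurred in 13 of the 60 members whose searched transcript has a 3′ UTR, or 21.7%, against 14.2% of the 13686 such tested genes. The longer match AAGCACAA, which contains the first, occurred in 5 of 60, or 8.33%, against 4.09% of all tested genes with a 3′ UTR. The members' UTRs were also longer, with a median of 1432 nucleotides against 1003 over all tested genes, and a longer UTR holds any short motif more often. Members with the 8-base match were Epha7, Plxna4, Plxnb1, Plxnc1 and Sema6b, and those with the 7-base match alone were Efnb1, Efnb2, Epha8, Ntn4, Sema3d, Sema4a, Sema5a and Sema6a.

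The 5 sites with the longer match are printed because they are the best seed matches among the guidance genes, and the Ntn4 pair because Ntn4 is the only other member with more than 1 match beside Plxna4. Capitals mark the match to the seed. Each is read 5′ to 3′ on the transcript strand.
Epha7 (chr4:28967409-28967438, plus strand): ttcaatgtatcAAGCACAAataactctttc
Plxna4 (chr6:32146776-32146805, minus strand): caattcccaggAAGCACAAgctactcacag
Plxnb1 (chr9:109118801-109118830, plus strand): aggagaacttaAAGCACAAtaaggctcagg
Plxnc1 (chr10:94792860-94792889, minus strand): agtctccacttAAGCACAAtgatatctaag
Sema6b (chr17:56123852-56123881, minus strand): tcgccacagggAAGCACAAgaaccccctcc
Ntn4, site 1 (chr10:93745856-93745884, plus strand): ctgaaggtcttAAGCACAcaagggctttt
Ntn4, site 2 (chr10:93746821-93746849, plus strand): acaattattgtAAGCACAgaatttgctct

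Levels are given first for the NC hemispheres, as CPM per kilobase of transcript, the scale on which genes can be ranked. The members ranged from 0.323 to 77, with a median of 6.06, and 20 of 62 lay above 10 and 4 below 1. The highest was Sema7a, a lipid-anchored semaphorin that binds Plexin C1 and integrins, at 77 ± 6.68 (SD, n = 4). Sema6b, a transmembrane semaphorin that binds A-type plexins, followed at 52.7 ± 7.0, and their ranges (69.5 to 84.2 and 44.9 to 61.9) did not overlap. Unc5a, a repulsive netrin receptor, stood at 43.2 ± 2.11 and overlapped with Sema6b. Next came Ephb6, an Eph receptor without kinase activity, at 38.9 ± 4.30, then the ligands Efnb3 at 36.6 ± 4.51 and Efna3 at 32.1 ± 4.07, and Epha4, which binds ephrins of both classes, at 31.6 ± 5.24. The ranges of these 4 overlapped one another, so that their order is not resolved.

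Within roles the levels differed widely. Among the plexins Plxna1 was highest at 16.6 ± 2.38 CPM per kilobase and Plxna3 lowest at 2.42 ± 0.239. Of the neuropilins, Nrp1 stood at 8.91 ± 2.12 and Nrp2 at 5.34 ± 0.836, and their ranges did not overlap. The netrin-G proteins, lipid-anchored relatives of the netrins, stood at 19.9 ± 2.42 (Ntng2) and 12.5 ± 1.41 (Ntng1), whereas the secreted netrins other than Ntn5 lay between 1.62 and 2.26. Ntn5 stood at 5.99 ± 1.59, but 25.9% of its exonic length overlaps a gene on the opposite strand. The overlap was 12% for Ntng2, with a gene on the same strand, and 10.7% for Plxna1, with a gene on the opposite strand. The class 3 semaphorins were all at or below 5.07, led by Sema3f, and Sema3b and Sema3d were among the 4 lowest members at 0.787 ± 0.172 and 0.560 ± 0.0873. Dcc, the attractive netrin receptor, stood at 1.24 ± 0.206, the lowest of its role.

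**Figure D1:**
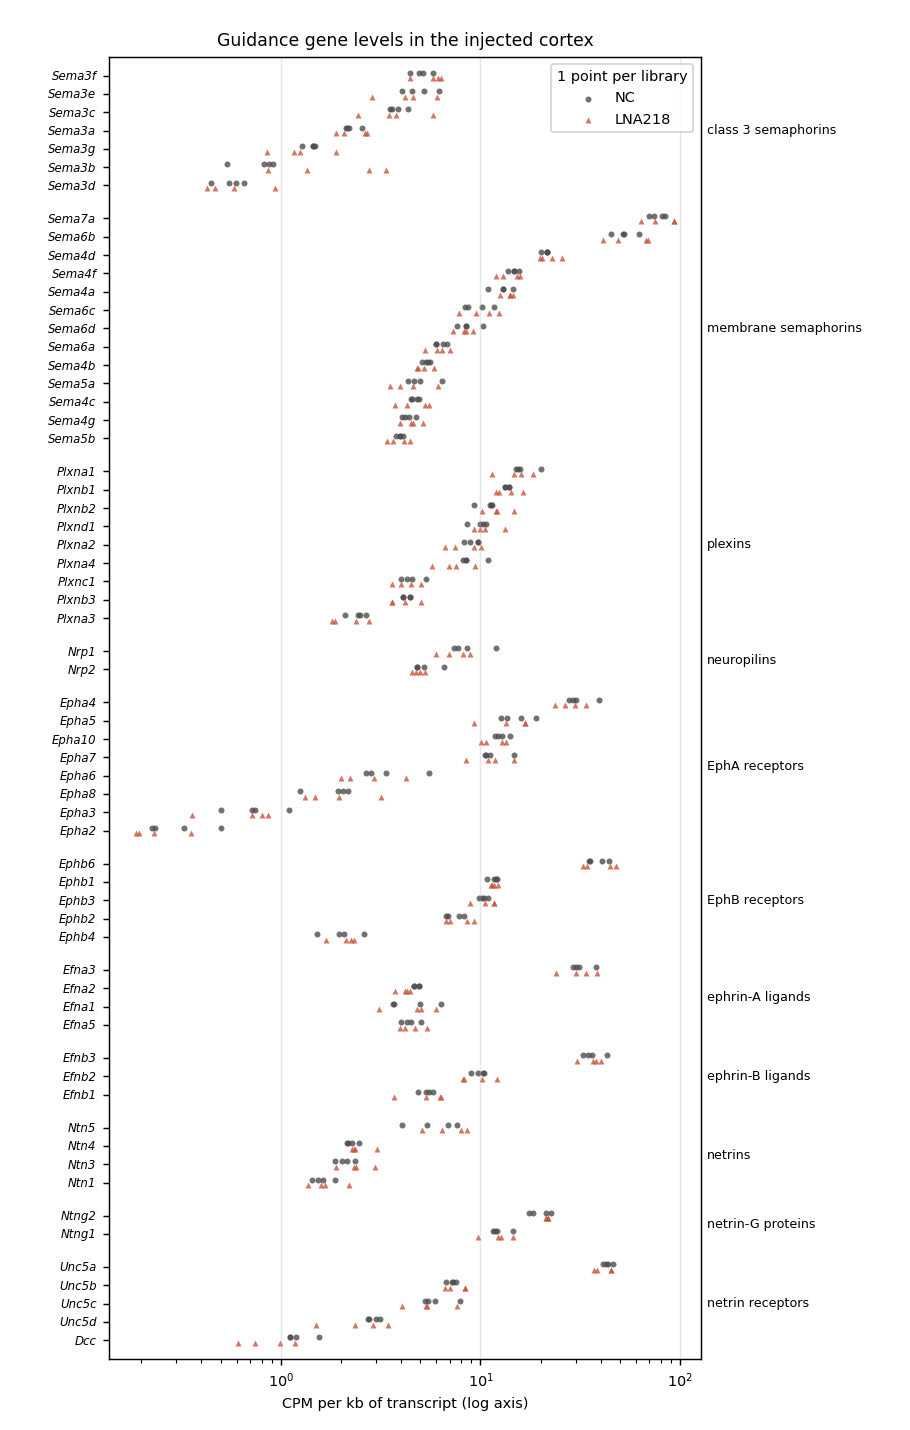
Level of each of the 62 guidance genes in each library, as CPM per kilobase of transcript on a log axis, grouped by role and ordered by the NC mean within each role. Circles are the 4 NC libraries and triangles the 4 LNA218 libraries. Sema7a is the highest row and Epha2 the lowest, and the 2 groups overlap for every gene but Efna2.

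The order depends on the transcript taken for the length. With the longest coding transcript of each gene, an alternative chosen after seeing the data, the top member was the same in 10 of the 11 roles. The exception was the class 3 semaphorins, where Sema3e (4.99) replaced Sema3f, then at 3.56. Ntng1 moved most of the members named above, from 12.5 to 3.63.

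The inhibitor was then compared with the control within animals. No gene passed edgeR's quasi-likelihood test with Benjamini-Hochberg adjustment over all 14506 tested genes, which is 0% called, and so no member was called. The lowest adjusted p among the members was 0.999. Before adjustment, 1 member was higher at p under 0.05 (Sema3b, 1.61% of 62) against 1.1% of all tested genes, and 1 was lower (Dcc, 1.61%) against 0.6%. Of the 62 members, 26 had a fitted log2 fold change above 0 and 36 below, with a median of -0.025 against -0.0096 over all tested genes. The median size of the fold change, without its sign, was 0.077 log2 units against 0.093 over all tested genes, and the median standard error was 0.13, so that a typical member differed by less than its own error.

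The 62 members leaned different ways in different animals. The median difference of LNA218 minus NC was 0.014, 0.0062, 0.10 and -0.064 log2 units in mice 33, 34, 35 and 36, and 34, 31, 44 and 19 of 62 members were higher. Over the 14506 tested genes 7264, 7433, 7133 and 7026 were higher. Most members were thus higher in mouse 35 and lower in mouse 36. Differences above 1 log2 unit in size were found for 1, 6, 0 and 2 members. The SD of the differences was 0.30, 0.62, 0.22 and 0.33 over the members, against 0.44, 0.66, 0.40 and 0.41 over all tested genes. Members higher in 4 of 4 animals numbered 4 (Sema3b, Plxnb2, Ntn3 and Ntn4), or 6.45% against 4.58% of all tested genes. Members lower in 4 of 4 numbered 2 (Dcc and Efna2), or 3.23% against 4.07%. Both directions together made 6 members, or 9.68% against 8.64%. In 1 member, Efna2, every LNA218 library lay below every NC library, or 1.61% against 0.648% of all tested genes, and in 0 members did every LNA218 library lie above every NC library, against 0.731% (1.38% for both directions). The shares for 4 of 4 animals and for separate groups are close to the background, and with 62 genes 1 member moves a share by 1.61 percentage points.

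**Figure D2:**
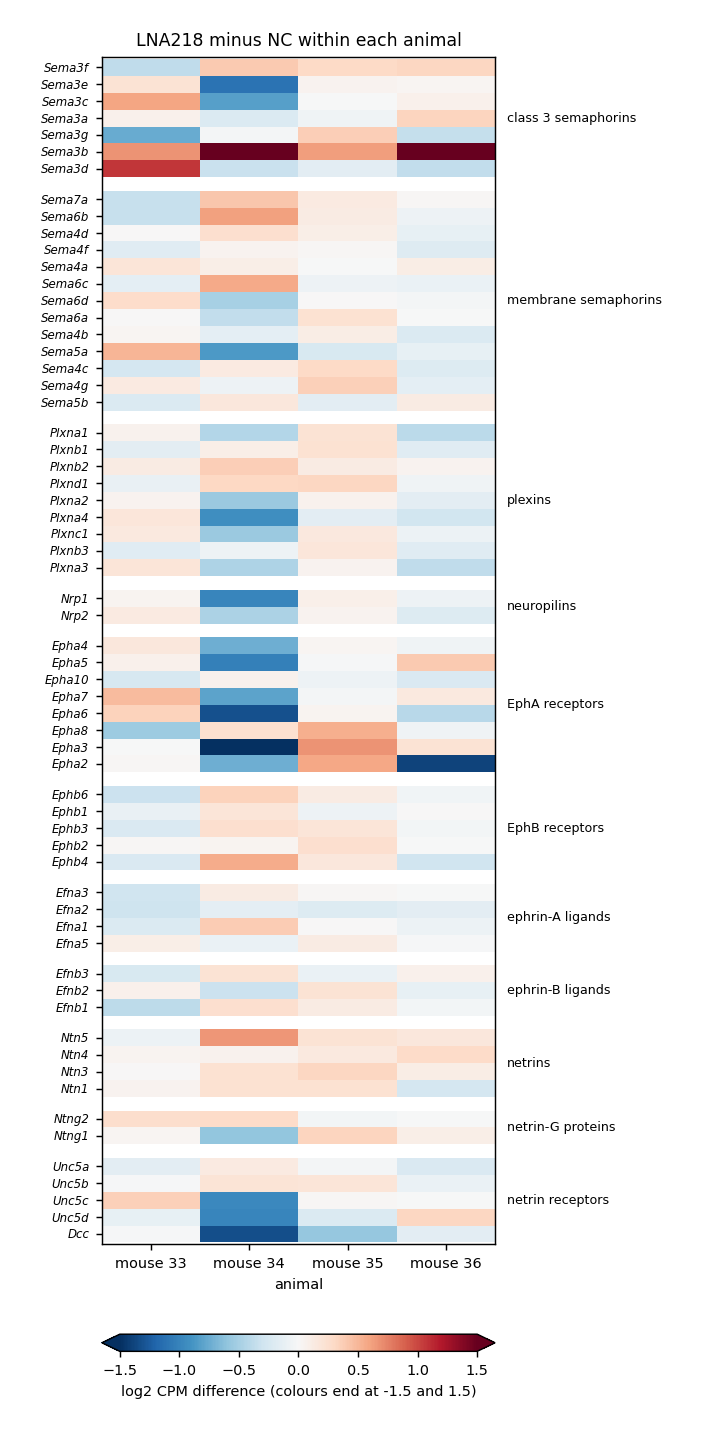
Colour map of the difference between the hemispheres of each animal (log2 CPM of LNA218 minus NC; red is higher with the inhibitor, blue lower), with 1 row per gene grouped by role and 1 column per mouse. Sema3b is red in all 4 columns, and most EphA receptors, Dcc, Unc5c and Unc5d are deep blue in mouse 34, with Dcc blue in mouse 35 too.

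Among the class 3 semaphorins, Sema3b, a secreted ligand that acts through neuropilins, had the smallest p of all members. Its level was 1.83, 2.81, 2.98 and 3.12 CPM in the NC libraries of mice 33, 34, 35 and 36, and 2.93, 11.5, 4.59 and 9.47 CPM in their LNA218 libraries. Every animal was higher on the inhibitor side, far more so in mice 34 and 36 than in mice 33 and 35. The groups overlapped, since the LNA218 library of mouse 33 lay below the NC library of mouse 36. The log2 fold change was 1.27 ± 0.27 (SE; 7.13 ± 4.04 against 2.68 ± 0.586 CPM, SD, n = 4; edgeR's quasi-likelihood test, unadjusted p = 0.0016, adjusted p = 0.999). The call depended on the test: adjusted p was 0.0325 in DESeq2, which called 0.0896% of the tested genes, and 0.0208 in edgeR's likelihood-ratio test, which called 0.0758%.

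Markers of choroid plexus were highest in the same libraries as Sema3b, and those of meningeal fibroblasts followed another pattern. All 11 listed choroid plexus markers were measured, and their summed level was 200.5 to 297.5 CPM in NC and 203.5 to 3441 in LNA218. Their median difference was 0.82, 5.06, 0.021 and 3.65 log2 units in mice 33 to 36, highest in the same 2 animals as Sema3b. Enpp2 made up most of each NC sum, at 193.8, 192.9, 175.4 and 210.9 CPM in mice 33 to 36. Folr1, Kcne2, Otx2, Aqp1 and Cldn2 were each under 1 CPM in every NC library. Ttr, the transthyretin gene that defines choroid plexus epithelium, stood at 2445 CPM in LNA218 against 17.9 in NC in mouse 34, and at 1585 against 67.0 in mouse 36. Kcne2 was the only choroid plexus marker at 0 in a library, the LNA218 library of mouse 35. All 12 meningeal fibroblast markers were measured as well, at 107.6 to 158.9 CPM in NC and 177.1 to 255.4 in LNA218, with median differences of 0.92, 0.93, 0.78 and -0.11. In mouse 36, where Sema3b differed by 1.59, 4 of the 12 were higher on the inhibitor side. Among these was Igf2, the highest of the list, at 75 CPM in LNA218 against 43.05 in NC. The sums of the list in mouse 36 were 181.6 and 158.9 CPM, and their difference rests largely on Igf2. Without mice 34 and 36 the fold change of Sema3b was 0.65 ± 0.27 (edgeR's quasi-likelihood test, unadjusted p = 0.0374), and without mouse 34 alone it was 1.0 ± 0.23. No member was called in either of these fits, which called 0.0893% and 0.0826% of the genes tested in them. The part of these tissues in the Sema3b values was not tested beyond that, and in bulk RNA a change in the number of cells of a type cannot be told apart from a change in RNA per cell.

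**Figure D3:**
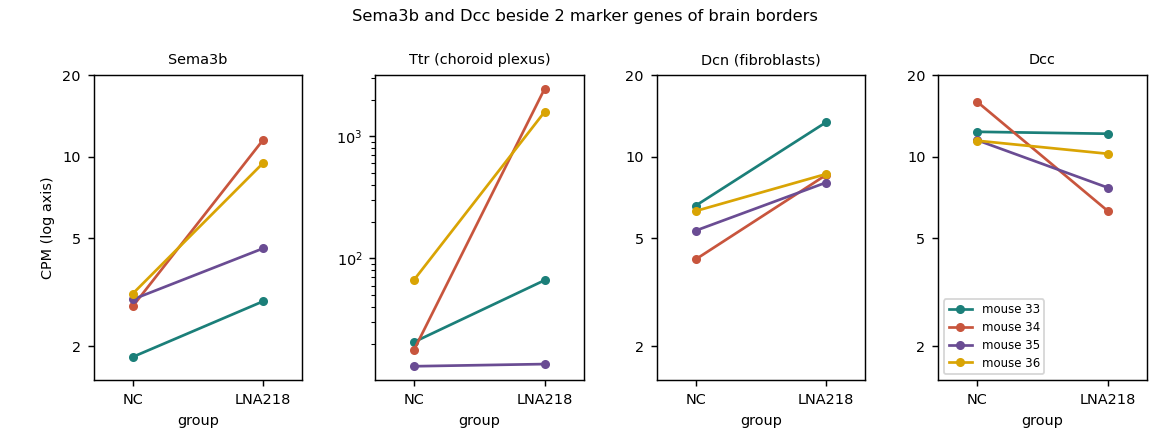
Level in CPM (log axes) of Sema3b, of Ttr as a choroid plexus marker, of Dcn as a fibroblast marker and of Dcc in the NC and LNA218 hemisphere of each animal, with lines joining the 2 libraries of 1 mouse. Sema3b and Ttr are highest in the LNA218 libraries of mice 34 and 36, Dcn is higher in LNA218 in each animal although 8 of the 12 fibroblast markers were lower in mouse 36, and Dcc is lowest in the LNA218 library of mouse 34.

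The other 6 class 3 semaphorins had fold changes between -0.20 and 0.16. Sema3f, which acts through Nrp2, had the second smallest p of the role. It was at 13.7, 10.5, 12.3 and 11.8 CPM in NC and 10.5, 13.8, 15.2 and 14.7 CPM in LNA218, higher in 3 of 4 animals with overlapping groups (log2 fold change 0.16 ± 0.16, and 0.088 without mouse 34). The 13 membrane-bound semaphorins had a median of -0.0065 and lay between -0.18 and 0.10, 6 above 0 and 7 below. Sema7a, the most abundant, was at 266, 229, 278 and 243 CPM in NC and 209, 306, 306 and 246 CPM in LNA218. It was lower on the inhibitor side in mouse 33 and higher in the other 3 animals (0.057 ± 0.13, and -0.060 without mouse 34). Sema4a, a transmembrane semaphorin, had 0.10 ± 0.099, and Sema5a, a transmembrane semaphorin with thrombospondin repeats and a 7-base seed match, had -0.18 ± 0.20, and 0.050 without mouse 34.

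Of the semaphorin receptors, 7 of 9 plexins had fold changes below 0, with a median of -0.083 and a range of -0.30 to 0.17. The lowest was Plxna4, a receptor of class 3 semaphorins that works with neuropilins, and the member with the longest UTR among the 5 printed above. It was at 106, 141, 109 and 109 CPM in NC and 120, 73.8, 97.6 and 89.3 CPM in LNA218. Mouse 33 was higher on the inhibitor side, the other 3 animals were lower, and the groups overlapped (-0.30 ± 0.17, edgeR's quasi-likelihood test, unadjusted p = 0.120), and without mouse 34 the value was -0.081 ± 0.097. Plxna1 had -0.14 ± 0.13, and -0.034 without mouse 34. The highest was Plxnb2, a receptor of class 4 semaphorins, at 60.6, 73.6, 72.2 and 74.4 CPM in NC and 65.8, 95.3, 78.5 and 77.4 CPM in LNA218. Every animal was higher on the inhibitor side, but the libraries of the groups overlapped (0.17 ± 0.10, unadjusted p = 0.132 in the same edgeR test, and 0.10 ± 0.091 without mouse 34). Both neuropilins were below 0, Nrp1 at -0.23 ± 0.19 and Nrp2 at -0.12 ± 0.13, and both without mouse 34 were above 0, at 0.023 and 0.0034.

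In the Eph and ephrin system, 7 of 8 EphA receptors had fold changes below 0 (median -0.14) and all 5 EphB receptors above 0 (median 0.045), and none passed the test. The EphA values were lowest in mouse 34, where their median difference was -0.77, against 0.050, 0.036 and -0.064 in mice 33, 35 and 36. The EphB values also varied by animal, with medians of -0.22, 0.26, 0.17 and -0.035 in mice 33 to 36. Of the 5 EphB receptors, 1, 5, 4 and 1 were higher in these animals. Epha4 was at 190, 249, 185 and 176 CPM in NC and 213, 150, 188 and 169 CPM in LNA218. The NC library of mouse 34 was the highest of the 8 and the LNA218 library of the same animal the lowest, while the other 3 animals differed little (-0.15 ± 0.15, and 0.046 without mouse 34). Epha6 had -0.33 ± 0.26, and 0.013 without mouse 34. Epha10, a receptor without kinase activity, was lower in 3 of 4 animals at -0.12 ± 0.10. Among the EphB receptors Ephb2 had 0.080 ± 0.10, Ephb3 0.045 ± 0.12 and Ephb6 0.025 ± 0.12. Without mouse 34 Ephb3 was at -0.020 and Ephb6 at -0.079.

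Efna2, a ligand of EphA receptors in topographic mapping, gave the clearest separation of the groups and a small difference. Its level was 9.92, 10.5, 10.5 and 9.95 CPM in NC and 8.0, 9.45, 9.08 and 8.95 CPM in LNA218. All 4 LNA218 libraries were below all 4 NC libraries. The log2 fold change was -0.20 ± 0.13 (8.87 ± 0.618 against 10.2 ± 0.309 CPM, SD, n = 4; edgeR's quasi-likelihood test, unadjusted p = 0.144, adjusted p = 0.999). The other ephrins lay near 0: Efna3 had -0.039 ± 0.11, Efnb2 -0.037 ± 0.12 and Efnb3 -0.012 ± 0.11. Without mouse 34 they were at -0.089, 0.065 and -0.085. For Efna3, 14.6% of the exonic length overlaps a gene on the opposite strand, and whether reads were counted by strand is not given in the sources used here.

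In the netrin system all 4 netrins had fold changes above 0, with a median of 0.15, and none passed the test. Ntn5 had 0.24 ± 0.15, and 0.11 ± 0.14 without mouse 34. Ntn3 was at 9.46, 10.2, 11.9 and 10.8 CPM in NC and 9.52, 12, 14.9 and 11.7 CPM in LNA218. It was higher on the inhibitor side in all 4 animals, by almost nothing in mouse 33, and the groups overlapped (0.17 ± 0.13). Exons of Ntn3 overlap those of Tbc1d24 on the same strand over 1.77% of its exonic length, so that a few reads may be shared between them. Ntn4, with the pair of sites printed above, was at 8.29, 7.92, 7.79 and 9.03 CPM in NC and 8.50, 8.28, 8.61 and 11 CPM in LNA218. It was also higher in 4 of 4 animals, with overlapping groups (0.13 ± 0.13). The netrin-G proteins had 0.12 ± 0.11 (Ntng2) and -0.032 ± 0.16 (Ntng1), and 0.073 and 0.16 without mouse 34.

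Of the netrin receptors, 4 of 5 had fold changes below 0, with a median of -0.15. Dcc was at 12.4, 15.9, 11.5 and 11.5 CPM in NC and 12.2, 6.32, 7.70 and 10.3 CPM in LNA218. It was lower in all 4 animals, clearly in mice 34 and 35 and hardly in mice 33 and 36, and the groups overlapped. The log2 fold change was -0.52 ± 0.22 (9.11 ± 2.61 against 12.8 ± 2.13 CPM, SD, n = 4; edgeR's quasi-likelihood test, unadjusted p = 0.0459, adjusted p = 0.999). Without mouse 34 it was -0.25 ± 0.15 (unadjusted p = 0.106 in the same edgeR test). In that test the unadjusted p was 0.1275 without mouse 35 and 0.102 with a hemisphere term. It was 0.0131 without mouse 33 and 0.0446 without mouse 36. The 3′ UTR of Dcc holds no seed match. Deep-layer cortical markers (7 of 8 measured, none at 0 in a library) summed to 292.4 to 375.9 CPM in NC and 252.6 to 370.9 in LNA218. Their median differences were -0.068, -0.15, 0.13 and 0.027 in mice 33 to 36, and Dcc differed by -1.33 and -0.58 in mice 34 and 35. In mouse 34 these markers summed to 252.6 CPM in LNA218 against 375.9 in NC, and 1 of the 7 was higher in LNA218. In mouse 35 they summed to 349.8 CPM in LNA218 against 317.2 in NC. Their part in the Dcc result was not tested. Unc5a had -0.070 ± 0.099, and -0.14 without mouse 34. Unc5d, a receptor of the same family that also binds FLRT proteins, had -0.25 ± 0.20, and -0.0013 ± 0.12 without mouse 34, so that its value rests on that animal.

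The differences within animals followed the GC content of the transcripts. Over the 62 members Spearman's rho between the difference and the GC content was -0.59, 0.81, 0.27 and -0.087 in mice 33 to 36. Over the 10278 tested genes with a mean log2 CPM above 3 it was -0.62, 0.69, 0.23 and -0.21, so the guidance genes went with the rest of the libraries. With transcript length rho was 0.38, -0.47, -0.12 and -0.23 over the members and 0.34, -0.57, 0.12 and -0.28 over those genes. The parts of GC content and length were not tested separately. These are correlations across genes that share a pair of libraries and are given as a description. The sign was opposite in mice 33 and 34. All 18 members with a GC content under 50%, among them Epha4, Epha6, Nrp2, Sema5a, Unc5d and Dcc, were lower on the inhibitor side in mouse 34, with a median of -0.82. In mouse 33, 15 of the same 18 were higher, with a median of 0.16. Of the 44 members at 50% and over, 31 were higher in mouse 34, with a median of 0.16.

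A correction for GC content and length was fitted in each library on the tested genes with a mean log2 CPM above 3. After it, the median of the 18 low-GC members in mouse 34 was -0.21. The members of mouse 34 still followed GC content after the correction (rho 0.37, against 0.0063 over the 10278 genes above that level), which touches the corrected values of that animal below. Dcc, one of the 18, then differed by -0.21, -0.60, -0.52 and -0.11 log2 units, still lower in all 4 animals. Its fitted value was -0.36 ± 0.12 with edgeR's quasi-likelihood test after the correction (unadjusted p = 0.013, adjusted p = 0.947). Sema3b was at 1.25 ± 0.22 in that fit, but its mean level lay below the cut, so its correction came from genes of higher level. After the correction 7 members were higher in 4 of 4 animals (Sema3b, Plxnb2, Plxnd1, Ntn3, Ntn4, Ntn5 and Unc5b), or 11.3% against 6.96% of all tested genes with a correction, and 4 were lower (Dcc, Efna2, Epha10 and Sema4f), or 6.45% against 5.5%. The EphA median in mouse 34 was -0.45 after the correction. No gene passed the adjusted threshold in the corrected fit either, which is again 0% called.

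**Figure D4:**
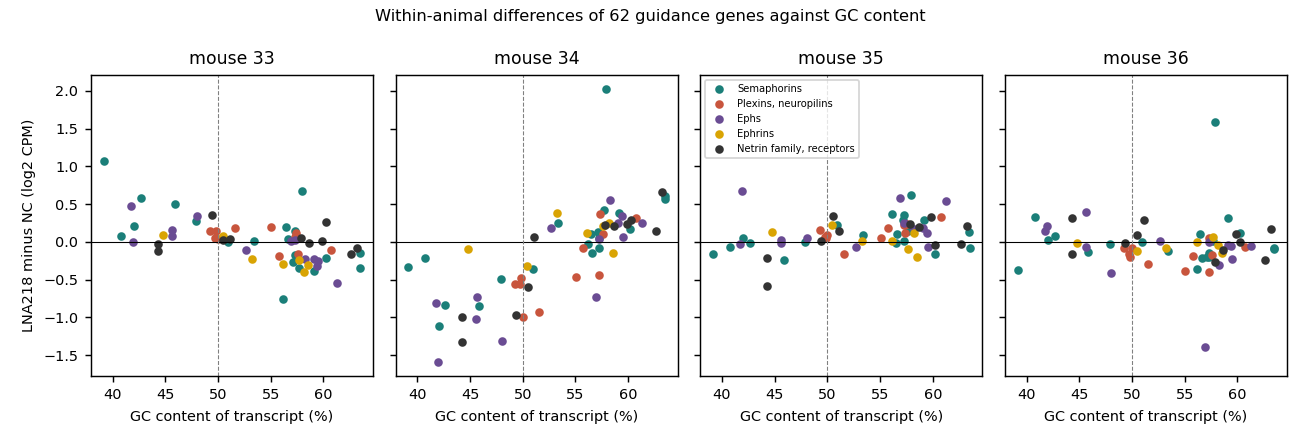
Difference between hemispheres (log2 CPM of LNA218 minus NC) of each of the 62 genes against the GC content of its transcript, 1 panel per mouse, coloured by family. The dashed line marks 50% GC. The slope is negative in mouse 33 (rho -0.59) and positive in mouse 34 (rho 0.81), where all 18 genes left of the line lie below 0.

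The 13 members with a seed match had a median fold change of -0.011, 5 above 0 and 8 below. It was -0.039 for the 47 with a UTR and no match in the transcript searched, and the difference was not tested. After the correction for GC content and length the median of the 13 was 0.040, -0.049, 0.078 and 0.0083 in mice 33 to 36, and that of the 47 was 0.015, -0.084, 0.053 and -0.027. Of the 5 with the 8-base match, 1 was above 0 and 4 below, with a median of -0.051 and a range of -0.30 (Plxna4) to 0.080 (Sema6b). Sema6b differed by -0.34, 0.61, 0.13 and -0.080 log2 units in mice 33 to 36, so that its value above 0 rests mainly on mouse 34. Over all tested genes the 1948 with a match had a median of -0.040, with 735 above 0 and 1213 below, and the 11738 without had -0.0029. Genes with a match also have longer UTRs, with a median of 2407 nucleotides against 851. After the correction, the median of all tested genes with a match was 0.017, 0.025, 0.021 and 0.0085 in mice 33 to 36, and that of the genes without was 0.010, 0.012, 0.0018 and -0.0029.

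**Figure D5:**
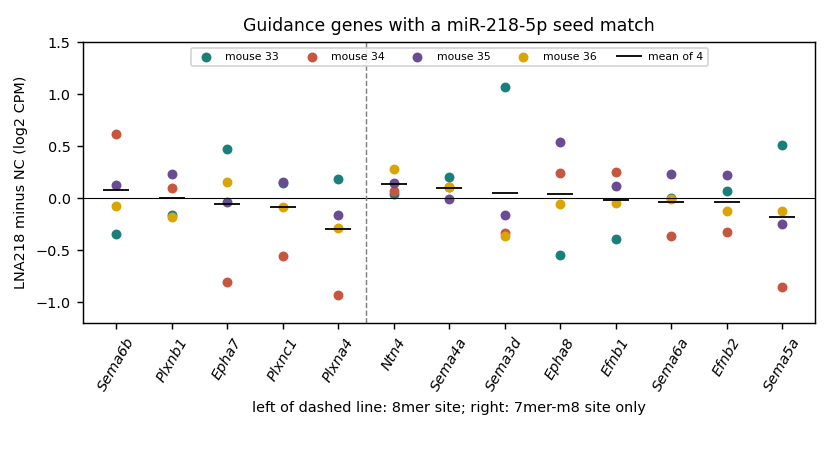
Difference between hemispheres (log2 CPM of LNA218 minus NC) of the 13 members whose 3′ UTR holds a miR-218-5p seed match, with 1 point per mouse and a bar for the mean of 4. The 5 genes left of the dashed line have the 8-base match and the 8 to its right the 7-base match alone, and the points of each gene but Ntn4 lie on both sides of 0.

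Genes that act with these receptors inside the cell or at its surface were taken from lists of known partners, 73 in all and each tested. None passed the adjusted test and none had an unadjusted p under 0.05, against 1.7% of all tested genes. The 27 semaphorin partners, such as collapsin response mediators and the MICAL proteins, were 10 above 0 and 17 below with a median of -0.065. The 23 ephrin partners were 8 above and 15 below with a median of -0.059, and the 23 netrin partners 8 above and 15 below with a median of -0.032. The smallest p was that of Grip1, a scaffold that binds ephrin-B ligands and Eph receptors, at -0.31 ± 0.15 (edgeR's quasi-likelihood test, unadjusted p = 0.0681).

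The authors' deposited table of fold changes and p-values gives a comparison of LNA218 with NC over all 14884 genes, with model terms not given in the sources used here. Of the 62 members in the authors' deposited table, 0 had an adjusted p under 0.05, against 0.235% of all genes. At an unadjusted p under 0.05 the authors' deposited table holds 9 members, or 14.5%, against 9.85% of all genes. Of these, 5 were higher (Plxnd1, Ntng2, Ntn3, Epha8 and Ntn5) and 4 lower (Epha10, Dcc, Efna2 and Plxna4). The smallest p of a member in the authors' deposited table was that of Plxnd1, a receptor of Sema3e, with a log2 fold change of 0.28 (p = 0.000801, adjusted p = 0.126). In the paired fit Plxnd1 had 0.12 ± 0.12 (edgeR's quasi-likelihood test, unadjusted p = 0.342) and was higher in 2 of 4 animals. Sema3b had 0.49 in the authors' deposited table with p = 0.0747, and Dcc -0.24 with p = 0.0297. The sign in the authors' deposited table was that of the paired fit for 42 of the 62 members.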

How the data were processed

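Polyadenylated RNA of 8 libraries (4 mice, both hemispheres) was compared within animals. The authors deposited expected (estimated) counts per gene, a natural log table, and a comparison table with log2 fold changes, test statistics (a score per gene) and p-values. Salmon, edgeR and GRCm39 are named per the submitters' processing notes, without versions or roles; the annotation, the transcript-to-gene step and strand handling were not given in the sources used here. The deposited natural log values equalled ln(TMM CPM + 1) to within 0.00303 and were not used further. Of the deposited estimated counts 71.2% were not whole, and they were rounded. Over all pairs of libraries the median chi-square per gene was at least 1.65, where sampling noise gives 0.455, so no library was a copy of another.

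Genes were kept with filterByExpr (minimum count 10), which removed 378 of 14884. The test was edgeR's quasi-likelihood F test (edgeR 4.0.16, R 4.3.3; TMM scaling, robust, animal as block, 3 residual degrees of freedom) with Benjamini-Hochberg adjustment over all tested genes at 0.05; it was tested on simulated data with known changes. CPM are TMM-scaled; differences within animals use log2 CPM with a prior count of 0.5. Depth was 17409882 to 25154657 counts per library, and the least counted member had 14 counts in 1 library. The same number marks the same animal in the labels. The correlations of the 2 libraries' deviations from their group means were 0.0768, -0.612, 0.444 and 0.195 in mice 33 to 36. Alternatives were upper-quartile scaling, DESeq2 size factors, leaving out the block, no filter and a CPM minimum of 1, DESeq2 1.42.0, limma-voom (limma 3.58.1), the likelihood-ratio test, a hemisphere term, a spline correction for GC content and length (98% of tested genes had both) and leaving out animals.

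Transcript lengths, GC content and 3′ UTRs come from GENCODE M21 (GRCm38), 1 transcript with the longest coding sequence per gene. The members and all gene lists were chosen with earlier results of these data known. In each role the 2 members with the smallest p and the one with the highest NC level per kilobase were named with their values, as were any called at an adjusted p under 0.05 (none); members with the 8-base match were named by count. Ntn4, Plxnd1, Epha8, Grip1, the members at the ends of a range and those that moved one way in 4 of 4 animals were added after their values were seen.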

Additional observations from a re-analysis of the deposited data

Results flagged for a closer look

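In 3 of the groups of 4 libraries examined, 1 library lay far from its 3 companions relative to the whole range of the group. Plxna1 stood at 7.51 log2 CPM in the NC library of mouse 34, against 7.09 to 7.16 in the other NC libraries. Plxna4 stood at 7.14 log2 CPM in that same library, against 6.73 to 6.77. Plxnb2 stood at 5.92 log2 CPM in the NC library of mouse 33, against 6.18 to 6.22. The screen covered 54 groups, and chance marks about 1 in 20 where groups are independent. These groups share the same 8 libraries, and the flags of Plxna1 and Plxna4 fall on 1 library, so that rate need not hold here. For Plxna4 and Plxna1 the high NC value of mouse 34 is part of that animal's low difference (-0.93 and -0.44 log2 units).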

How the results depend on the processing

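Across all tested genes, where the quasi-likelihood test called 0, DESeq2 called 13, the likelihood-ratio test 11, and the fit without mice 34 and 36 (1 residual degree of freedom) 13, and leaving out 1 animal gave 0 to 12, the 12 without mouse 34. Among the members DESeq2 and the likelihood-ratio test each called 1, Sema3b, and leaving out 1 animal gave 0. Members at an unadjusted p under 0.05 numbered 2, and 1 with a hemisphere term, 4 after the GC and length correction with the animal block, 1 without mice 34 and 36, and 1 to 5 leaving out 1 animal, the 5 without mouse 33. The members' median of -0.025 was 0.072 without mice 34 and 36, -0.068 to 0.011 leaving out 1 animal, and -0.012 without the replicate block, which changed no call. The seed-match share of 21.7% became 8.33% with 8-base matches by construction. The cause of the other changes was not tested.

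Of 405 values of the 27 named genes under alternatives, 372 kept their sign and their side of the threshold, 2 of Sema3b passed it, and 31 in 15 genes changed sign, none of them called. With a hemisphere term Efnb2 was 0.048 and Ntng1 0.090, and with upper-quartile scaling Efnb3 was 0.0056. Without mice 34 and 36 the values were 0.15 for Efnb2, 0.095 for Epha4, 0.20 for Epha6, -0.020 for Ephb3, -0.098 for Ephb6, 0.066 for Nrp1, 0.096 for Nrp2, 0.19 for Ntng1, 0.14 for Plxna1, 0.013 for Plxna4, -0.032 for Sema3f, 0.13 for Sema5a and -0.10 for Sema7a. Leaving out 1 animal gave -0.089 to 0.048 for Efna3, -0.12 to 0.065 for Efnb2, -0.085 to 0.066 for Efnb3, -0.25 to 0.046 for Epha4, -0.57 to 0.013 for Epha6, -0.020 to 0.14 for Ephb3, -0.079 to 0.14 for Ephb6, -0.35 to 0.023 for Nrp1, -0.20 to 0.0034 for Nrp2, -0.16 to 0.16 for Ntng1, -0.41 to 0.050 for Sema5a and -0.060 to 0.19 for Sema7a. At this depth 2 of 62 members had under 50 counts in some library, Epha2 with as few as 14 and Sema3b with 39.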
